A study of Mus musculus with 10 samples.

Results

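The genes described here carry out antibody class switching, somatic hypermutation and the joining of broken DNA ends in B cells. They are 29 genes, taken by symbol from a given list, of 55492 symbols in the count table. Every one of the 29 passed the low-count filter and was tested, with between 53 and 60639 counts in a library. RNA-seq was performed on 10 libraries of mouse B cells from spleen. Naive B cells were taken on day 0 from WT mice (2 libraries) and from KO mice (2 libraries). Induced germinal center B cells (iGCB), grown from such cells on the 40-LB feeder system, were taken on day 4 (3 WT and 3 KO libraries). KO mice carried floxed Pcbp1 (fl/fl) and Mb1-Cre, which deletes Pcbp1, an RNA-binding protein, in the B lineage. Mb1-Cre sits in the Cd79a locus, and the labels do not say whether WT mice carried Cre or floxed alleles. In a difference of KO from WT, loss of Pcbp1 therefore cannot be told apart from Cre carriage or a changed Cd79a level. Age and strain of the mice are not in the labels, and neither is whether each library came from its own mouse, so p-values measure the spread between these libraries only.

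In class switching and hypermutation, a cytidine deaminase turns cytosine into uracil in immunoglobulin genes. Uracil is removed by base excision enzymes or recognised by mismatch repair, and error-prone polymerases that copy across the damage leave mutations. In switch regions the same lesions become double-strand breaks, which break-signalling kinases and ubiquitin ligases mark, end-protection factors shield from resection, and the end-joining machinery ligates to a new constant region. The deaminase itself is not analysed here.

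Levels are given in CPM, counts of a gene as a share of all counts in a library after TMM scaling,, as mean ± SD over libraries. Differences are log2 fold changes with standard error (SE) from edgeR's quasi-likelihood test over the 4 groups. A gene is called where its adjusted p (Benjamini-Hochberg over 21010 genes) is under 0.05, and "rose" and "fell" are used for called genes only. CPM are shares of a library, so a change in total RNA per cell is not seen in them, and fewer cells of a type cannot be told apart from less RNA per cell.

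Libraries held 33400672 to 63576147 counts. The deleted gene, Pcbp1, stood at 152 and 83.9 CPM for the naive WT libraries and at 4.33 and 0.448 CPM for the naive KO ones. On day 4 its level was 148, 327 and 326 CPM with the WT label, while the KO label went with 3.71, 1.96 and 2.59 CPM, so each library fits its label. B cell genes were present in every library, with Cd79b, a chain of the B cell receptor, between 514 and 1170 CPM, and Pax5, a B lineage transcription factor, between 467 and 2156 CPM. A list of 5 B cell genes summed to 6433 and 6095 CPM in naive WT and 4414 and 4777 CPM in naive KO. In iGCB libraries it summed to 2284 to 2649 CPM for WT and 2730 to 2915 CPM for KO. From naive to iGCB WT cells, 4 of these 5 genes were called lower. Cd79a, whose locus holds Mb1-Cre, was called lower in KO at both stages, with 1387 and 1173 CPM in naive WT, 432 and 414 CPM in naive KO (log2 fold change -1.60), and a log2 fold change of -1.03 in iGCB cells. Summed markers of myeloid cells were at 103 to 421 CPM in naive and 6.22 to 54.8 CPM in iGCB libraries, and 9 feeder (fibroblast) markers at 3.07 to 22.9 and 327 to 453 CPM. Thy1 made up 257 to 413 CPM of the latter, and the other 8 feeder markers summed to 30.3 to 75.6 CPM in iGCB libraries. The S phase list (22 genes) summed to 704 to 1097 CPM in naive, 3505 to 4357 in iGCB WT and 3026 to 3355 in iGCB KO libraries. By Xist and 4 Y-linked genes, naive WT 1 and naive KO 1 came from females and the other 8 libraries from males.

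In naive WT cells the most abundant of the 29 genes per kilobase of exon was Samhd1, which degrades deoxynucleotides, at 85.9 ± 36.7 CPM per kilobase (n = 2). Parp1, a sensor of strand breaks, followed at 62.8 ± 10.8, then Neil1, a glycosylase of base excision repair, at 30.1 ± 3.96, and Msh6, the mismatch-recognition subunit, at 29.2 ± 4.20. Samhd1 and Parp1, and Neil1 and Msh6, do not differ in this order beyond their spread. The lowest were Nhej1, an end-joining scaffold, at 1.52 ± 0.239 and Exo1, a mismatch-repair exonuclease, at 0.769 ± 0.208. In iGCB WT cells the order began with Neil1 at 256 ± 39.2 CPM per kilobase (n = 3), ahead of Parp1 at 100 ± 11.8, Msh6 at 60.4 ± 1.35 and Samhd1 at 51.4 ± 7.72. It ended with Apex2 at 1.55 ± 0.0777 and the ubiquitin ligase Rnf8 at 0.493 ± 0.0297. These orders depend on the length used, which is all annotated exon bases of a gene, 8744 for Apex2 and 11703 for Rnf8. In CPM, Apex2 (13.6 ± 0.680) stood above Xrcc4 (11.5 ± 1.07), and Rnf8 (5.77 ± 0.348) above Nhej1 (2.28 ± 0.603). GENCODE M21 lets Rnf8 share 13.2% of its exon bases with Gm28043 on the same strand, which limits its level.

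**Figure D1:**
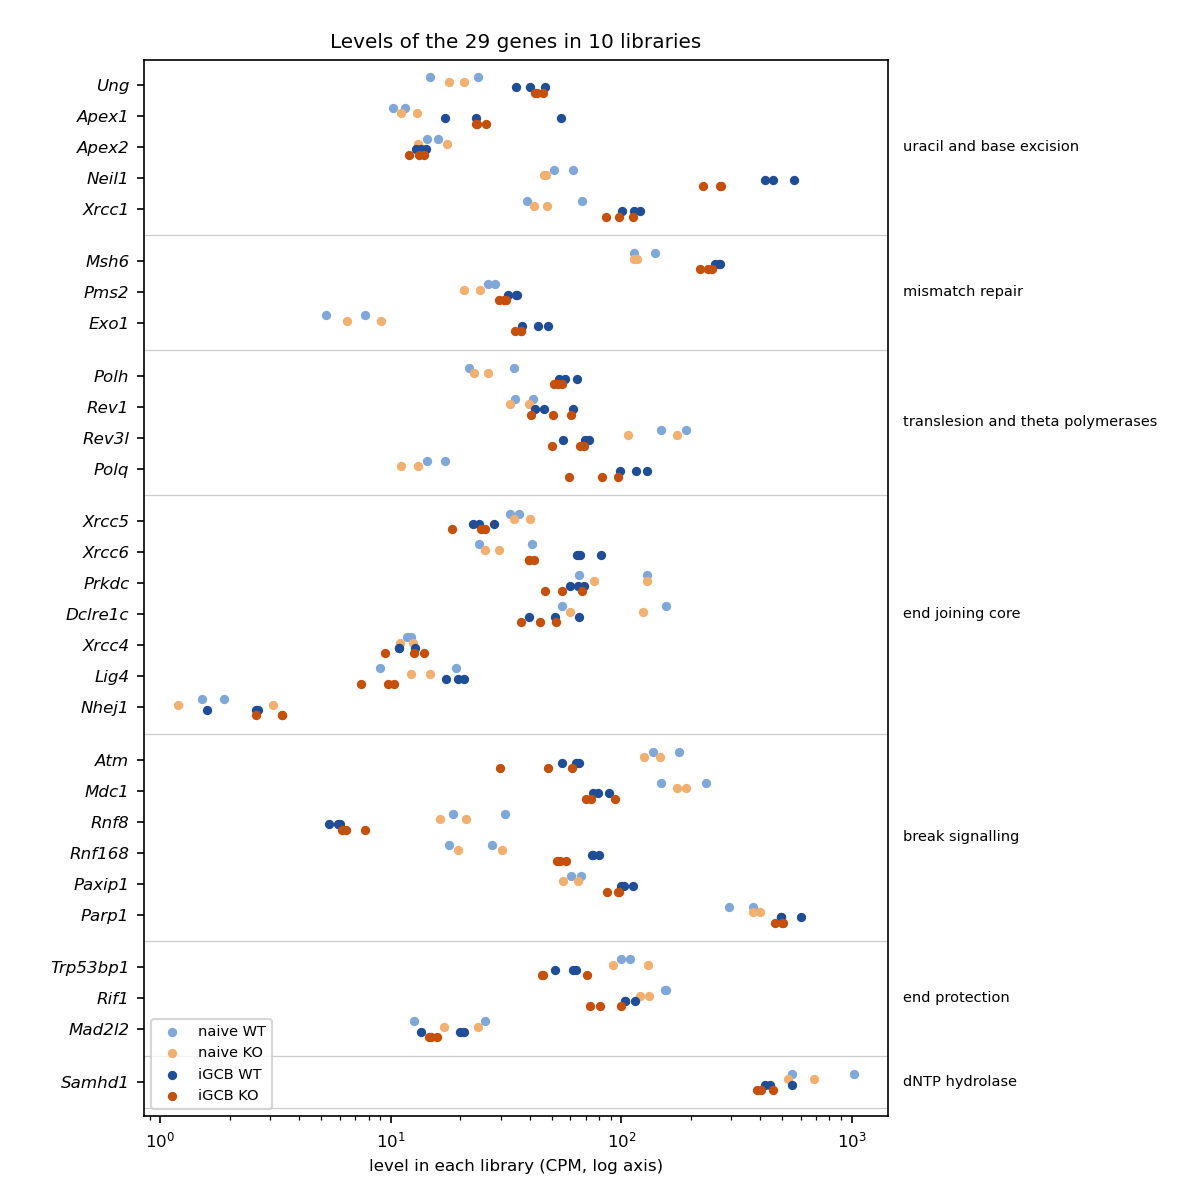
Level of each of the 29 genes in each of 10 libraries (x axis, CPM, log axis), with genes grouped by role on the y axis and 1 point per library. Neil1, Exo1 and Polq lie far to the right in iGCB libraries, Rnf8, Atm and Rev3l lie to the left, and the KO points of Neil1, Xrcc6 and Lig4 lie left of the WT points in iGCB cells.

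The comparison of iGCB with naive cells in WT mice asked how these genes change when B cells take on a germinal center-like state. Of the 29 genes, 12 rose and 7 fell. Over all 21010 genes tested, 24.7% rose and 31.7% fell. The median log2 fold change was 0.39 over the 29 genes and -0.25 over all genes. By role, 4 of 5 base excision genes and 2 of 3 mismatch repair genes rose, and 2 of 3 end-protection genes fell. Break-signalling genes split, with 3 higher and 3 lower, and of 4 polymerases 2 rose and 1 fell. Every iGCB library was male and naive WT 1 was female. With a sex term, chosen after the data were seen, Samhd1 was not called (-0.36, adjusted p = 0.122), while Prkdc (-0.94, adjusted p = 0.000828) and Dclre1c (-1.48, adjusted p = 0.000205) were called lower. Only naive WT 1 and naive KO 1 were female, so this term cannot be told apart from any other difference between naive libraries of number 1 and 2.

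Among base excision genes, 4 of 5 rose. Neil1, which removes oxidised bases, was at 61.5 and 51.1 CPM in naive WT and at 454, 562 and 421 CPM in iGCB WT, an 8.5-fold difference (log2 fold change 3.09, SE 0.20, adjusted p = 1.01e-06). It is the largest rise among the 29 genes. Ung, the glycosylase that excises uracil from DNA, went from 14.8 and 23.8 CPM to 34.9, 40.2 and 46.6 CPM (log2 fold change 1.08, SE 0.23). Xrcc1, the scaffold of single-strand break repair, rose from 53.2 ± 20.1 to 112 ± 9.97 CPM (1.07, SE 0.23). Apex1, the main abasic-site endonuclease, was at 10.2 and 11.5 CPM in naive WT and at 23.5, 17.2 and 54.9 CPM in iGCB WT (1.55, SE 0.41). Apex1 in iGCB WT 3 stood far above the other 9 libraries, none of which exceeded 25.9 CPM, and without it the rise was 0.90 (adjusted p = 0.0108). GENCODE M21 places 61.7% of the exon bases of Apex1 under Pip4p1 on the other strand, and the strand setting of the counting is not given, so the level of Apex1 is uncertain. Pip4p1 itself was at 98.6 CPM in iGCB WT 3 and at 105 and 108 CPM in iGCB WT 1 and 2. Apex2, a weaker relative of Apex1 needed by dividing cells, was not called (15.2 ± 1.17 to 13.6 ± 0.680 CPM, -0.16, SE 0.21).

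In mismatch repair, Msh6 rose from 140 and 114 CPM to 256, 267 and 264 CPM (log2 fold change 1.05, SE 0.15). Exo1 rose 6.58-fold, from 7.72 and 5.24 CPM to 43.4, 36.9 and 47.9 CPM (2.72, SE 0.25, adjusted p = 1.06e-05). Pms2, the endonuclease subunit, had groups that did not overlap but was not called (27.3 ± 1.18 to 34.1 ± 1.70 CPM, 0.32, SE 0.16, adjusted p = 0.112). Among the polymerases, Polq, which drives end joining by microhomology, rose 7.28-fold, from 14.3 and 17.1 CPM to 116, 129 and 98.2 CPM (2.86, SE 0.24). Polh, the polymerase behind mutations at A and T pairs, rose from 28.0 ± 8.86 to 58.3 ± 5.47 CPM (1.05, SE 0.20). Rev3l, the catalytic subunit of polymerase zeta, moved the other way, from 148 and 190 CPM to 72.7, 69.8 and 55.8 CPM (-1.35, SE 0.23). Its partner Rev1 was not called (0.39, SE 0.22). Exo1 and Polq rose in the same libraries in which all 22 S phase genes lay above 0 (median log2 fold change 2.10, 20 of 22 called higher). The part of cell cycle in these changes was not tested.

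Of the 7 core end-joining genes, Xrcc6 alone rose and 0 fell. Xrcc6, the Ku70 subunit that with Ku80 caps DNA ends, went from 40.8 and 24.0 CPM in naive WT to 66.1, 64.3 and 81.3 CPM in iGCB WT (log2 fold change 1.12, SE 0.23, adjusted p = 0.00179). Xrcc5, the Ku80 subunit, went from 34.4 ± 2.02 to 25 ± 2.76 CPM without overlap (-0.46, SE 0.19, adjusted p = 0.0609). The naive WT libraries disagreed for others of this group. Prkdc, the DNA-dependent kinase, was at 65.5 and 129 CPM, Dclre1c, the Artemis nuclease, at 55.3 and 157 CPM, and Lig4, the ligase, at 19.1 and 8.98 CPM. As fitted with all libraries, Dclre1c stood at -1.02 (SE 0.41, adjusted p = 0.0505). Without naive WT 1, Dclre1c (-1.58) and Prkdc (-1.0) were called lower and Lig4 (1.10) higher, with adjusted p of 0.00305, 0.00945 and 0.0106. Without naive WT 2 in its place, they stood at -0.09, -0.03 and 0.00, with adjusted p of 0.878, 0.965 and 1.0. Xrcc4, the partner of Lig4, was at 11.9 ± 0.307 and 11.5 ± 1.07 CPM (-0.06, SE 0.24), and Nhej1 at 1.70 ± 0.268 and 2.28 ± 0.603 CPM (0.42, SE 0.52).

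Break-signalling genes split evenly, with 3 higher and 3 lower. Atm, the apical kinase, fell, with 137 and 178 CPM in naive and 63.4, 65.6 and 55.3 CPM in iGCB cells (log2 fold change -1.36, SE 0.25). Mdc1, the adaptor that binds phosphorylated histone H2AX, fell from 190 ± 59.4 to 81.0 ± 6.91 CPM (-1.23, SE 0.20). Rnf8 fell 4.31-fold, from 18.6 and 31.2 CPM to 5.37, 6.02 and 5.92 CPM (-2.11, SE 0.27, adjusted p = 8.76e-05). Rnf168, the ligase that acts after Rnf8, rose 3.38-fold over the same libraries, from 27.4 and 17.8 CPM to 75.2, 74.3 and 79.9 CPM (1.76, SE 0.24). The groups of both ligases did not overlap, and their directions were opposite. Paxip1, an adaptor of the break response, rose from 63.5 ± 4.76 to 105 ± 6.32 CPM (0.73, SE 0.15), and Parp1 from 332 ± 57.0 to 530 ± 62.7 CPM (0.67, SE 0.17).

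Of 3 end-protection genes, Trp53bp1, which blocks resection, fell to 58.8 ± 6.46 CPM in iGCB cells from 104 ± 6.53 CPM (-0.82 on the log2 scale, SE 0.23). Its effector Rif1 fell from 155 ± 2.34 to 108 ± 6.42 CPM (-0.53, SE 0.16). Mad2l2, a shieldin subunit, was at 19 ± 9.11 and 18 ± 3.94 CPM (-0.08, SE 0.30). Samhd1 was at 1024 and 548 CPM in naive WT and at 443, 551 and 418 CPM in iGCB WT (-0.74, SE 0.25, adjusted p = 0.0248), with overlapping groups. Of the 29 genes, 14 had iGCB libraries all above the naive ones and 8 all below, where 32.2% and 40.2% of all genes did. Parp1 was not called without naive WT 2 (adjusted p = 0.0552), and Samhd1 was not called without naive WT 1 (-0.22, adjusted p = 0.415), iGCB WT 1 (0.0687) or iGCB WT 3 (0.0736).

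**Figure D2:**
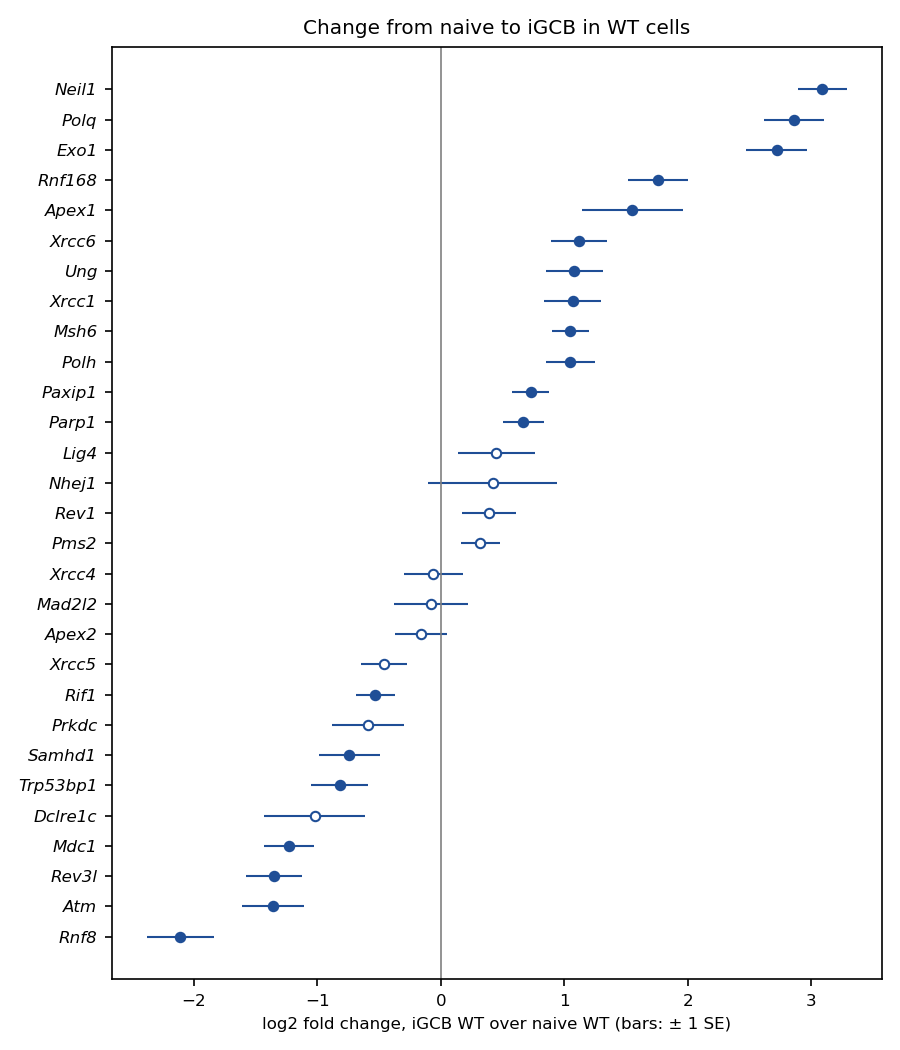
Log2 fold change of iGCB WT over naive WT (x axis) with bars of 1 SE for the 29 genes (y axis), sorted by size, with filled points called at an adjusted p under 0.05 and open points not called. Neil1, Polq and Exo1 lie highest, between 2.72 and 3.09, and Rnf8 lies lowest at -2.11.

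Promoter sequence is shown for genes that rose together from naive to iGCB cells, to set the letters of 2 cell-cycle and growth-related motifs beside the change. The RefSeq table of GRCm38.p6, which is the mm10 build, held a promoter for 24 of the 29 genes. It had no entry for Apex2, Exo1, Rev3l, Prkdc and Rif1. Shown are the 250 bases before the start site, 5′ to 3′ on the gene's strand, of Neil1 (chr9:57148306-57148555, minus strand), Polq (chr16:37011536-37011785, plus strand) and Rnf168 (chr16:32277211-32277460, plus strand), the genes with the largest rise that have an entry. Xrcc6 (chr15:82016119-82016368, plus strand) was added after its match was seen. Capitals mark a match to a searched motif.
Neil1: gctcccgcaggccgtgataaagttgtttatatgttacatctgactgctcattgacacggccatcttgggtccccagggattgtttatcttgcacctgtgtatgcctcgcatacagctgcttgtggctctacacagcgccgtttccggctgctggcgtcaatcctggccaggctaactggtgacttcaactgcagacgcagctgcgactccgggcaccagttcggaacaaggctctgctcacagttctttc
Polq: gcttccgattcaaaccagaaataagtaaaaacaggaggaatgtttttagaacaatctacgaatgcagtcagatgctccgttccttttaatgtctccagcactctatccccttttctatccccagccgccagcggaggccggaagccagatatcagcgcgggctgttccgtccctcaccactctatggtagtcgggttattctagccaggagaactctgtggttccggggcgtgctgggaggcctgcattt
Rnf168: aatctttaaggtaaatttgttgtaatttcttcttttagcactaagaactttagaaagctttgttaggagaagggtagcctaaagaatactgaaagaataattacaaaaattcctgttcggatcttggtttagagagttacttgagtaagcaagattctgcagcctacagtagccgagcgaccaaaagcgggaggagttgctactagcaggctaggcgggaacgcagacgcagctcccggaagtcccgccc
Xrcc6: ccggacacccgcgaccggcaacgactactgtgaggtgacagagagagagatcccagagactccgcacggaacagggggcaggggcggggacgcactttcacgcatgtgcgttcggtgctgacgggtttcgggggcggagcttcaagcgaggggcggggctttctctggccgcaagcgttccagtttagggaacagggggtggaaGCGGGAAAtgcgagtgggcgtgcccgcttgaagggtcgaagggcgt

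The search covered both strands of 300 bases per promoter, 250 before and 50 after the start. E2F-type letters were TTTCCCGC, TTTGGCGC, TTTCGCGC and TTTGCCGC, and the E-box was CACGTG; matches were allowed to overlap. Of 11 promoters of genes that rose, 2 held an E2F-type word (Msh6 and Xrcc6) and 2 an E-box (Apex1 and Parp1). Of 5 promoters of genes that fell, 1 held an E2F-type word (Mdc1) and 0 an E-box. Of 8 promoters of genes not called, 0 held an E2F-type word and 2 an E-box (Rev1 and Xrcc5). Over 32851 promoters in the table, 2.26% held an E2F-type word and 7.15% an E-box. In Xrcc6 the word TTTCCCGC lay on the opposite strand with its leftmost base 46 bases before the start, and the promoter of its Ku partner Xrcc5 held no E2F-type word in this window. GC content of the shown stretch was 65.2% in Xrcc6, 54.8% in Neil1, 51.6% in Polq and 43.6% in Rnf168, against a median of 52.4% over all promoters.

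Resting cells were compared on day 0, KO against WT. None of the 29 genes was called by edgeR or by DESeq2, and 0 had an unadjusted p under 0.05. Over all genes 0.0476% were called and 5.55% had such a p. The log2 fold changes ran from -0.41 (Rnf8, SE 0.29) to 0.33 (Nhej1, SE 0.56), and 18 of 29 lay below 0, against 54.8% of all genes. Their median was -0.06, and -0.05 over all genes. Scaled by library size alone, both medians were 0.07 and 12 genes lay below 0.

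Rif1, Pms2, Polq and Neil1 were the 4 genes whose naive KO libraries both lay under both WT libraries, where 12.7% of all genes did, and 0 lay above, where 11.5% did. Rif1 stood at 157 and 154 CPM with Pcbp1 and at 121 and 132 CPM without it (log2 fold change -0.30, SE 0.18). For Neil1 these levels were 61.5 and 51.1 CPM against 46.9 and 46.2 CPM (-0.27, SE 0.19). Polq stood at 14.3 and 17.1 against 13.1 and 11.1 CPM (-0.38, SE 0.24), and Pms2 at 28.2 and 26.5 against 20.7 and 24.3 CPM (-0.28, SE 0.18). For other genes the female libraries (number 1) and the male ones (number 2) gave unlike values. The log2 ratio of KO to WT was -0.65 in the female and 0.72 in the male pair for Lig4, 0.49 and -0.42 for Ung, and -0.47 and 0.09 for Xrcc6. Of the 29 genes, 10 were below 0 in both pairs, 4 above 0 in both, and 15 in neither state. Dclre1c was at 55.3 and 59.8 CPM in the female WT and KO libraries and at 157 and 124 CPM in the male ones, so that genotype moved it less than the pair did. Suv39h2 lies over 3.83% of the exon bases of Dclre1c on the other strand. Suv39h2 stood at 10.1 and 11.5 CPM in the female libraries and at 47.8 and 31.9 CPM in the male ones, and its part was not tested. The G2 and mitosis list summed to 443 and 393 CPM in the female WT and KO libraries and to 191 and 210 CPM in the male ones, and its part in the pair differences was not tested.

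Cells under germinal center-like activation were compared on day 4, KO against WT. Neil1 fell, and it was the only one of the 29 genes called by edgeR (0.923% of all genes fell), while 0 rose (0.343% of all genes). Its level was 454, 562 and 421 CPM with Pcbp1 and 271, 267 and 227 CPM without it, 479 ± 73.4 against 255 ± 24.1 CPM (n = 3 each). The groups did not overlap, and the log2 fold change was -0.91 (SE 0.15, adjusted p = 0.0172). The call was kept without iGCB WT 1 or iGCB WT 3 (for the latter, adjusted p = 0.0351) and lost without any of the other 4 libraries. Without iGCB WT 2 it was -0.78 (adjusted p = 0.0615), and without iGCB KO 1, 2 or 3 it was -0.95, -0.95 and -0.83 (adjusted p of 0.0759, 0.071 and 0.126). Neil1 in iGCB KO stayed several times above its naive KO level of 46.6 ± 0.481 CPM.

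The end-joining genes Xrcc6 and Lig4 had the next smallest p-values. Xrcc6 stood at 66.1, 64.3 and 81.3 CPM in WT cells against 41.7, 39.8 and 39.6 CPM in KO cells (log2 fold change -0.81, SE 0.20, adjusted p = 0.0919). Lig4, the ligase that seals the joined ends, stood at 20.8, 17.4 and 19.6 CPM against 10.3, 7.41 and 9.71 CPM (-1.07, SE 0.28, adjusted p = 0.119). Neither gene passed the threshold, and for both every KO library lay under every WT library, as for 10.3% of all genes. The model estimates 1 spread per gene over all 4 groups, and the naive WT libraries of both genes differed from each other (40.8 and 24.0 CPM for Xrcc6, 19.1 and 8.98 CPM for Lig4). The part of this naive spread in the missed threshold was not tested. In a fit of the 6 iGCB libraries alone, Xrcc6 and Lig4 were called lower (adjusted p of 0.00617 and 0.00493), as was Rnf168 (adjusted p = 0.044). That fit called 329 genes higher and 534 lower of 15377, where the main fit called 72 and 194 of 21010. DESeq2 on all libraries also called Xrcc6 (adjusted p = 0.00247) and Lig4 (adjusted p = 0.0073). With libraries of one number joined as a replicate block, Xrcc6 was called (adjusted p = 0.0284) and Lig4 was not. Neither gene was called with library size scaling or with DESeq2 size factors in edgeR. With 1 iGCB library left out at a time, 0 of 6 fits called Xrcc6 (adjusted p of 0.171 to 0.333) or Lig4 (0.229 to 0.405). Desi1, which lies over 7.69% of the exon bases of Xrcc6 on the other strand, stood at 106, 118 and 90.1 CPM in WT against 95.9, 80.4 and 87.9 CPM in KO cells.

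**Figure D3:**
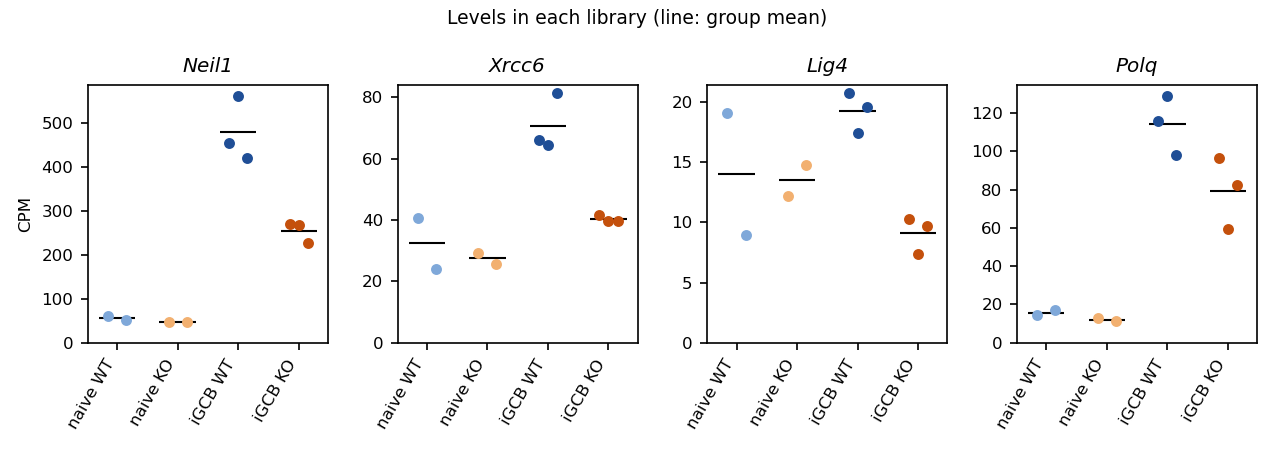
CPM of Neil1, Xrcc6, Lig4 and Polq in each library (y axis from 0), by group (x axis), with 1 point per library and a line at the group mean. In iGCB cells the KO points lie under the WT points in all 4 panels, and the naive WT points of Xrcc6 and Lig4 lie apart.

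None of the other 5 core end-joining genes was called, and all of their intervals include 0. Xrcc5 stood at 25 ± 2.76 against 22.9 ± 3.79 CPM in KO cells (log2 fold change -0.13, 95% interval -0.51 to 0.26). Xrcc4 was at 11.5 ± 1.07 and 12 ± 2.30 CPM (0.06, interval -0.41 to 0.53), and Nhej1 at 2.28 ± 0.603 and 3.11 ± 0.449 CPM (0.44, interval -0.56 to 1.45). Prkdc (-0.20, SE 0.26) and Dclre1c (-0.23, SE 0.37) were not called.

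Genes that act together, and the related Apex1 and Apex2, were compared as ratios within a library, per exon base, which no scaling can change. The ratio of Xrcc6 to Xrcc5, the Ku subunits, was 1.65, 1.53 and 1.65 with Pcbp1 on day 4 and 1.29, 0.887 and 0.923 without it, a mean log2 difference of -0.66. In naive cells the ratio was 0.707 and 0.382 for WT and 0.418 and 0.424 for KO, under 1 in all 4 naive libraries. Which Ku gene is the more abundant there depends on the annotated lengths, 4476 exon bases for Xrcc6 and 2555 for Xrcc5. In CPM, Xrcc6 and Xrcc5 stood at 32.4 ± 11.9 and 34.4 ± 2.02 in naive WT and at 27.4 ± 2.76 and 37.2 ± 4.14 in naive KO. The ratio of Lig4 to Xrcc4, which work as 1 ligase complex, was 1.54, 1.11 and 1.47 against 0.888, 0.433 and 0.624 in KO cells, a mean log2 difference of -1.13. Lig4 to Nhej1 differed by -1.56, and Apex1 to Apex2 by -0.15 with overlapping groups. For the 3 ratios that did not overlap between iGCB groups, the exact two-sided permutation test gave p = 0.1, the smallest 3 against 3 libraries allow, and adjusted p = 0.267 over 8 tests. These 3 ratios are not independent results, as 2 of them share Lig4, and Lig4 and Xrcc6 themselves did not overlap between these groups. In naive cells, 2 against 2 libraries cannot go below 0.333 in that test.

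**Figure D4:**
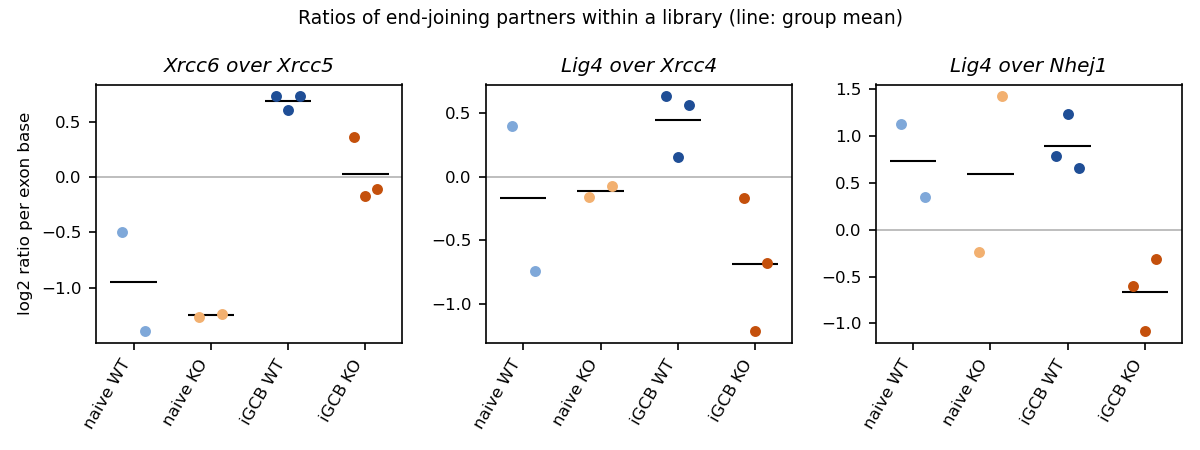
Log2 ratio per exon base (y axis) of Xrcc6 over Xrcc5, Lig4 over Xrcc4 and Lig4 over Nhej1 in each library, by group (x axis), with a line at the group mean. The iGCB KO points lie under the iGCB WT points in each panel, and the naive points are scattered or low.

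Of the 29 genes, 24 lay below 0 with a median of -0.17. Over all 21010 genes, 9918 (47.2%) lay below 0 and 9989 above, with a median of 0.00. These 21010 include genes low in iGCB cells, since the filter kept 15377 genes when given the iGCB libraries alone. KO libraries lay wholly under WT libraries for 10 of 29 genes (10.3% of all genes) and wholly above for 1, Rnf8 (10.2%). An unadjusted p under 0.05 was reached by 6 of 29 genes (9.76% of all genes), which were Neil1, Xrcc6, Lig4, Polq, Rnf168 and Rif1. In the same libraries 21 of 22 S phase genes and 14 of 14 tested G2 and mitosis genes lay below 0, each list with a median of -0.29 and 0 called, and the part of cell cycle in the shift of the 29 genes was not tested. Plasma cell markers (Prdm1, Xbp1, Jchain, Sdc1, Irf4 and Tnfrsf17) summed to 1940 to 2070 CPM in iGCB WT and to 975 to 1073 CPM in iGCB KO, where 3 of 6 were called lower, and myeloid markers to 6.22 to 19.1 and to 14.2 to 54.8 CPM. Their part in these differences was not tested.

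Rnf168 stood at 75.2, 74.3 and 79.9 CPM in WT cells against 52.8, 54.2 and 57.8 CPM in KO cells (log2 fold change -0.48, SE 0.20, adjusted p = 0.443). Rnf8, which acts before it, was at 5.37, 6.02 and 5.92 CPM and at 6.36, 7.75 and 6.15 CPM (0.23, SE 0.24). Neither ligase was called here, and their fold changes had opposite signs. Polq stood at 116, 129 and 98.2 against 96.3, 59.4 and 82.2 CPM (-0.53, SE 0.19, adjusted p = 0.347). Rif1 was at 104, 115 and 104 CPM and at 80.9, 73.0 and 100 CPM (-0.35, SE 0.14, adjusted p = 0.452), and Atm at 63.4, 65.6 and 55.3 CPM and at 48.2, 29.7 and 61.2 CPM (-0.41, SE 0.23). iGCB KO 2 was the lowest of the 6 iGCB libraries for Polq, Rif1, Atm, Rev3l, Prkdc and Dclre1c. It was also the lowest of the 6 for Lig4, Rev1 and Apex2, among others. Within the iGCB KO group it was the lowest library for 13 of the 29 genes and the highest for 9. Over the 10 genes with the most exon bases, iGCB KO 2 stood at a median log2 of -0.37 from the mean of KO 1 and KO 3, with 9 of 10 below 0. Over the other 19 genes it stood at 0.04, with 9 of 19 below 0, among them Lig4 (-0.43) and Rev1 (-0.45). Without KO 2, Polq was at -0.37, Rif1 at -0.26 and Atm at -0.18, and the part of transcript length was not tested.

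Mismatch repair genes were close to WT levels, although every KO library lay under every WT library for all 3, as for 10.3% of all genes. For Exo1 the lowest WT library was at 36.9 CPM and the highest KO library at 36.7 CPM. Msh6 stood at 262 ± 5.88 against 235 ± 14.0 CPM in KO cells (log2 fold change -0.16, 95% interval -0.44 to 0.13). Pms2 was at 34.1 ± 1.70 and 30.6 ± 1.10 CPM (-0.15, interval -0.47 to 0.16), and Exo1 at 42.8 ± 5.51 and 35.9 ± 1.25 CPM (-0.25, interval -0.69 to 0.18). Ung, which acts on the deaminase's product, stood at 34.9, 40.2 and 46.6 against 42.1, 45.8 and 42.9 CPM (0.10, interval -0.33 to 0.53). Xrcc1 (-0.18, SE 0.20), Apex2 (-0.05, SE 0.19) and Apex1 (-0.39, SE 0.35) were not called, and the sign of Apex1 turned without iGCB WT 3 (0.26, adjusted p = 0.883). Apex1 in KO was at 23.5, 25.9 and 23.7 CPM, inside the WT range of 17.2 to 54.9 CPM.

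Polh (-0.13, SE 0.18), Rev1 (0.02, SE 0.20) and Rev3l (-0.10, SE 0.21) gave no call among the bypass polymerases. Paxip1 (-0.17, SE 0.13), Parp1 (-0.12, SE 0.15), Mdc1 (-0.03, SE 0.18), Trp53bp1 (-0.12, SE 0.21), Mad2l2 (-0.25, SE 0.27) and Samhd1 (-0.18, SE 0.22) gave none among signalling, end protection and nucleotide control. GENCODE M21 places 26.6% of the exon bases of Rev1 under Eif5b and 15% of those of Trp53bp1 under Tubgcp4, both on the other strand.

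**Figure D5:**
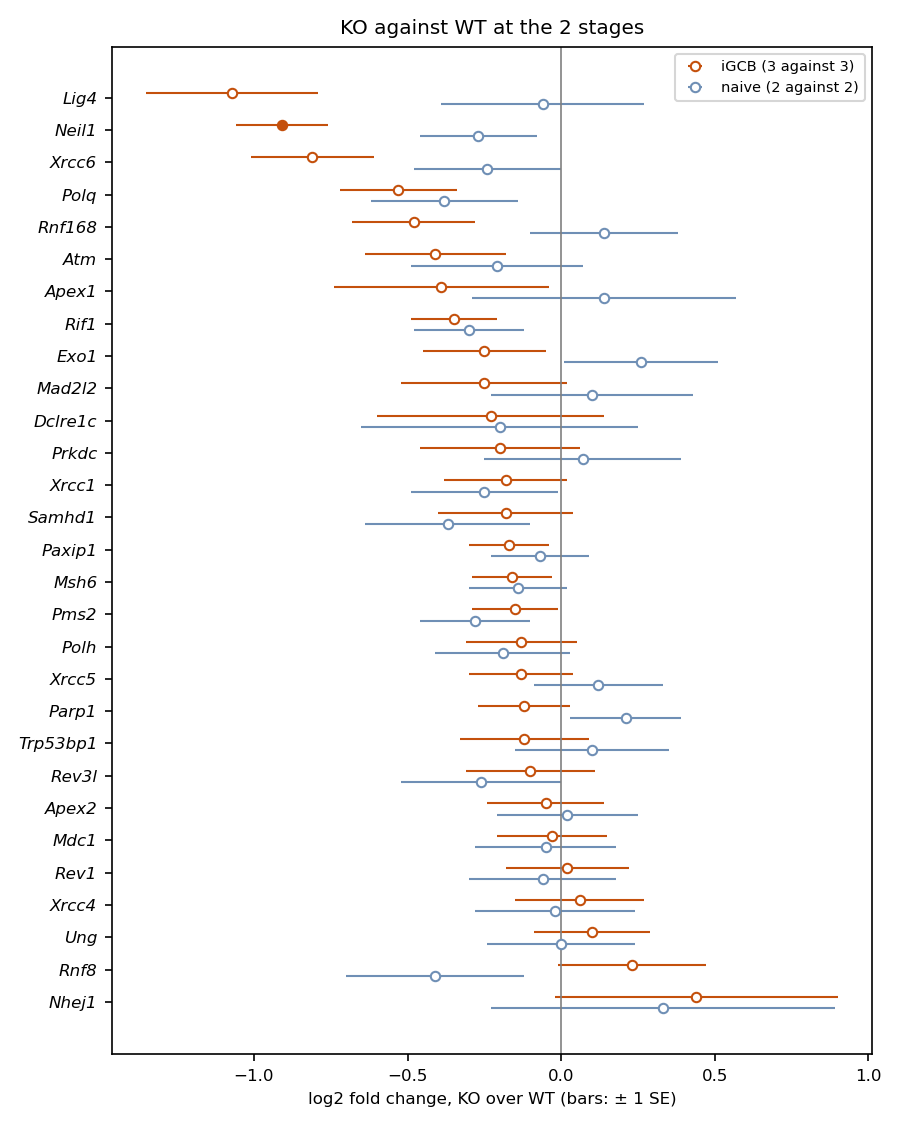
Log2 fold change of KO over WT (x axis) with bars of 1 SE for the 29 genes (y axis), in iGCB cells (orange) and naive cells (blue), with filled points called at an adjusted p under 0.05. Neil1 at -0.91 in iGCB cells is the filled point, and the naive points lie between -0.41 and 0.33.

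The difference between the KO effect in iGCB cells and that in naive cells was tested directly. None of the 29 genes was called by edgeR or by DESeq2, where 0.0333% of all genes were called by edgeR. Unadjusted p-values under 0.05 were found for 2 genes (6.06% of all genes), Neil1 (difference -0.63, SE 0.24, adjusted p = 0.69) and Lig4 (-1.01, SE 0.43, adjusted p = 0.789). The value of Lig4 was -1.65 without naive WT 1 and -0.56 without naive WT 2, and it was not called in either case. The call of Neil1 in iGCB and not in naive cells is therefore not shown to be a difference between the stages. Xrcc6 had a difference of -0.57 (SE 0.31), Rnf168 of -0.62 (SE 0.31) and Rnf8 of 0.64 (SE 0.38). Scaled by library size alone, the median of all genes moved from 0.04 to -0.10, and that over the 29 genes from -0.07 to -0.21.

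The neighbouring genes of these pathways came from a list of 47 symbols, of which 46 were tested. From naive to iGCB WT cells, 16 rose and 7 fell, with a median of 0.22, where 24.7% and 31.7% of all genes did and the median was -0.25. The largest rises were those of Neil2, a relative of Neil1 (0.0674 ± 0.0240 to 1.40 ± 0.233 CPM, log2 fold change 4.29, SE 0.75, a fold made uncertain by the few naive counts), Fen1, a flap nuclease (3.37, SE 0.66), and Rpa3, a subunit of the single-strand binding complex (2.83, SE 0.28). Fen1 was at 4.99, 5.21 and 20.9 CPM in iGCB WT, and without iGCB WT 3 its value was 2.34 (adjusted p = 0.00257), below those of Rpa3 (2.58) and of Neil3 (2.85), another relative of Neil1 that was picked out after its values were seen. The largest falls were those of Hmces, which crosslinks to abasic sites in single-stranded DNA and shields them (26.8 ± 0.295 to 1.37 ± 0.392 CPM, -4.29, SE 0.34, adjusted p = 4.01e-06), and of the shieldin subunits Shld2 (-1.40, SE 0.18) and Shld1 (-1.36, SE 0.34). Of the other shieldin subunits, Shld3 stood at 2.97 and 3.68 CPM in naive WT and at 5.43, 5.43 and 4.93 CPM in iGCB WT (0.66, SE 0.36, adjusted p = 0.133). Mad2l2 was not called either, and no difference between the subunits was tested. In iGCB KO against WT, 0 of the 46 genes were called by edgeR, 4 had an unadjusted p under 0.05 (9.76% of all genes), and the median was -0.01. In naive KO against WT, 0 were called by edgeR and 3 had such a p (5.55% of all genes).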

How the data were processed

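The authors deposited 1 table of raw counts by gene symbol. The submitters' processing notes name featureCounts and mm10. Aligner, annotation, strand setting and versions: not given in the sources used here. Among values of 1 to 20, 17.7% to 26.9% were odd, so mates of a pair may be counted singly and counts are not independent fragments. Genes were filtered with filterByExpr by group (minimum count 10), scaled with TMM and fitted in 1 quasi-likelihood model of 4 groups, leaving 6 residual degrees of freedom (R 4.3.3, edgeR 4.0.16), tested on simulated data first. DESeq2 1.42.0 and other settings were alternatives. SE is the absolute log2 fold change over the square root of F. Positions and exon lengths are from GENCODE M21 (mm10), promoters from RefSeq. All 29 genes are named; other pathway genes are named where called in a KO comparison or among the 3 largest rises and falls called between stages. Members and lists were chosen with earlier results of these data known. The series' design text speaks of pairs of WT and KO without saying what a pair shares. Same-number WT and KO libraries deviated from their group means with a correlation of 0.54, -0.18 and 0.02 in iGCB cells. In naive cells it was 0.67, a single value, since deviations in groups of 2 mirror each other, and there a number also goes with sex. Libraries were not paired in the reported tests, and the paired fit is an alternative. The 24219 symbols at 0 in every library were not tested.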

Additional observations from a re-analysis of the deposited data

How the results depend on the processing

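Counts of the 29 genes called stayed at 0 under every setting run for naive KO against WT and for the difference of KO effects, and at 0 higher for iGCB KO against WT. In iGCB KO against WT, 1 gene was called lower, but 3 with DESeq2, 3 without the low-count filter, 4 with the 6 iGCB libraries alone, and 3 with a sex term, which was chosen after the data were seen. With the replicate block, which joins WT and KO libraries of one number within a stage, 2 genes were called lower, Neil1 and Xrcc6 (adjusted p = 0.0284). Leaving out 1 library gave 0 to 1. The cause of these shifts was not tested. Library size scaling or DESeq2 size factors in edgeR kept the count at 1. In iGCB against naive WT cells, 11 to 13 genes were called higher and 5 to 9 lower over all settings, with 12 and 7 in the main result. With the replicate block, which there joins libraries of one number within a genotype, Parp1, Rif1 and Samhd1 lost the call (adjusted p of 0.0912, 0.118 and 0.145). Rif1 was not called without the low-count filter (0.0704), nor Samhd1 with only the groups compared (0.0634). Xrcc5 (-0.55) and Dclre1c (-1.14) were called lower with DESeq2 (0.0139 and 0.0202) and with its size factors in edgeR (0.0291 and 0.0397), and Dclre1c (-0.95) and Prkdc (-0.52) without the filter (5.64e-05 and 0.0417). Over all genes, DESeq2 called 301 higher and 478 lower in iGCB KO against WT, where edgeR called 72 and 194, and 105 and 62 in naive KO, where edgeR called 3 and 7. The other settings that called more of the 29 genes in iGCB KO against WT also called more over all genes. These calls were 290 higher and 551 lower of 31273 without the filter, and 329 and 534 of 15377 with the iGCB libraries alone. The sex term, although all iGCB libraries were male, gave 221 and 419 of 21010, and the replicate block 212 and 377. With 2 naive libraries a group, moderate differences in naive cells were not detectable, and overlapping genes limit Apex1, Rev1, Trp53bp1 and Rnf8.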
